A study of Mus musculus with 12 samples.

Results

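Small RNA genes other than the small nuclear RNAs were examined in total RNA from mouse brain. A gene was taken when its GENCODE M21 type is snoRNA, scaRNA, miRNA, misc_RNA, rRNA or ribozyme and when its row in the deposited count table could be given a name. The table itself carries no names. Names were recovered where the size-factor-normalized average of a row equalled an average listed in the study's own table of test results, and 1349 of 15928 rows received a name in this way. Of these, 90 were small RNA genes, namely 81 snoRNA, 7 misc_RNA, 1 scaRNA, 1 miRNA, 0 rRNA and 0 ribozyme genes, and 16 further genes of these types in the study's table could not be matched to a single row. The study's table holds mostly genes with small p-values for Tg against Wt in these same mice. The 90 genes were therefore in effect chosen by that comparison, and their Tg against Wt values are a description only, while values for batch and sex did not enter the choice.

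The data came from 12 mice labelled as 11 months old, 5 wild type (Wt) and 7 Tg2576 (Tg), the latter carrying human APP with the Swedish mutation. Each sample was tissue of 1 mouse in which hippocampus and cortex were mixed. Ribosomal RNA was depleted, and libraries were prepared and sequenced in 2 batches on an Ion Torrent instrument. The first comprised 3 Wt and 5 Tg mice. The second comprised Wt 79 and Wt 80, both female, and Tg 68 and Tg 69, both male, so sex and genotype cannot be told apart within batch 2. Library totals ran from 15768135 to 20996174 counted reads. App was higher in all 7 Tg mice (2991 to 5727 CPM, that is counts scaled to the library total and its TMM factor) than in the 5 Wt mice (1214 to 1496), and App was the 1 gene that passed an adjusted p under 0.1 in edgeR (adjusted p = 7.55e-04, quasi-likelihood F-test with Benjamini-Hochberg adjustment). Mouse Wt 41 goes against its label. It is labelled male, yet it had 199 CPM of Xist, the RNA of the inactive X chromosome, where the other 4 males had at most 0.0563 and the 7 females 150 to 233, so sex values are also given without it.

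Box C/D snoRNAs guide ribose methylation of other RNAs, box H/ACA snoRNAs guide pseudouridylation, and scaRNAs do the same for spliceosomal RNAs in Cajal bodies. Most are cut from introns of host transcripts. The SNORD115 and SNORD116 families are box C/D snoRNAs made in many copies from introns of 1 long paternal transcript of the imprinted Prader-Willi region, which is active in neurons, and SNORD115 is known for its complementarity to the mRNA of Htr2c, a serotonin receptor, around its edited sites. Y RNAs bind the Ro60 and La proteins, vault RNAs belong to the vault particle, 7SK RNA holds back the elongation factor P-TEFb, and 7SL RNA is the scaffold of the signal recognition particle. These last are made by RNA polymerase III.

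The set was dominated by the Prader-Willi cluster. All 63 of its snoRNA members lie in introns of Snhg14 on the minus strand of chromosome 7 (GRCm38, the assembly also called mm10). The 56 SNORD115 copies are 78 to 79 bases long and the 7 SNORD116 copies 94 bases. GENCODE M21 annotates 135 SNORD115 and 70 SNORD116 copies within Snhg14, so the copies described here are 56 of 135 and 7 of 70. Among the 56 SNORD115 copies there are 20 distinct sequences, and any pair is at least 92.4% identical. The most common sequence is carried by 16 copies and the next by 10, and the 10 differ from the 16 by the single substitution G31C, counted from the 5′ end. In 45 copies a stretch of 18 bases is exactly complementary to Htr2c, and in the other 11 it is interrupted, leaving 12 to 17 bases. The complementary site is at chrX:147169689-147169706, on the plus strand, in exon 5 of a 6-exon Htr2c transcript. None of the 1299 annotated snoRNA genes outside Snhg14 reaches 18 bases against Htr2c, and their longest match is 16. The following sequences are shown because they carry the differences on which the copies are compared below; capitals mark the longest run complementary to Htr2c.

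Gm22511, chr7:59471904-59471982, minus strand, first sequence, 16 copies: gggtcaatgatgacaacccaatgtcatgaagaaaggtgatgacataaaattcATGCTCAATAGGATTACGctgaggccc
Gm22640, chr7:59578319-59578397, minus strand, second sequence, 10 copies: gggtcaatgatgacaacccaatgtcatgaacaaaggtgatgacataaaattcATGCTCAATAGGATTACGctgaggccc
Gm23310, chr7:59514667-59514745, minus strand, G70A, 3 copies: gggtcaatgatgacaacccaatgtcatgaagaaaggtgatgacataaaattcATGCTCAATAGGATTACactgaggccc
Gm24495, chr7:59507198-59507276, minus strand, G23A and A65T, 1 copy: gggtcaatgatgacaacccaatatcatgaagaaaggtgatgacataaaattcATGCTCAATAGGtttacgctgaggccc
Gm25120, chr7:59436149-59436227, minus strand, C14A, G35A and C58T, 1 copy: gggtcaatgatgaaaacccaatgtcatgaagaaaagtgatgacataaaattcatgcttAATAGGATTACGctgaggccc
Gm23145, chr7:59424924-59425002, minus strand, G35T, G55T and G70A, 1 copy: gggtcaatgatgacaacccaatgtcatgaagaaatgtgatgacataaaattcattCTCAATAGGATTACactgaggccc

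The SNORD116 copies are shown by 1 sequence, with the C box TGATGA and the D box CTGA in capitals. Both boxes, searched on the RNA strand within 20 bases of the 5′ end and within 15 bases of the 3′ end, were present in 66 of the 81 snoRNA members, against 20.2% of all 1507 annotated snoRNA genes and 0 of 1383 snRNA genes. The high count comes from the cluster, where all 56 SNORD115 and all 7 SNORD116 members had both. Of the 18 other snoRNA members 3 did (16.7%). ACA at 3 bases from the 3′ end of an RNA over 100 bases, the H/ACA tail, was present in 11 members, against 17% of annotated snoRNA genes and 0.651% of snRNA genes. Gm22192, Gm25632, Snord13 and Gm24119 had neither pattern in these windows. Of the H/ACA members, Gm25394 in an intron of Iars and Gm25989 in an intron of Qtrt2 are 91% identical although they lie on different chromosomes, and Snora35 lies in an intron of Htr2c itself, the gene whose mRNA SNORD115 matches.

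Gm24760, SNORD116, chr7:59751489-59751582, minus strand: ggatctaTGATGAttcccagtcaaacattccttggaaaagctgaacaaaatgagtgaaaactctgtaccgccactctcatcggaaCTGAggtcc
Gm25394, H/ACA with ACA in capitals, chr13:49684301-49684433, plus strand: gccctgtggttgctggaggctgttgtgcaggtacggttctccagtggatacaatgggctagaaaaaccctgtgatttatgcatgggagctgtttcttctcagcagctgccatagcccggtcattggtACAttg
Gm25989, H/ACA with ACA in capitals, chr16:43886682-43886814, minus strand: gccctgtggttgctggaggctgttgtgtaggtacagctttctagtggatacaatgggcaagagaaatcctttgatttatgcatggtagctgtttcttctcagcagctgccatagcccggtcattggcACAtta
Snora35, H/ACA with ACA in capitals, chrX:146994381-146994508, plus strand: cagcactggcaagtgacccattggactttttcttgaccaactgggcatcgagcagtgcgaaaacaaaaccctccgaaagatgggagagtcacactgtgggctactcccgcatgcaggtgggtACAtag

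Levels differed widely among the 90 genes. Between 0.770% (Wilson 95% confidence interval 0.766 to 0.774, counting error only, mouse Wt 41) and 1.85% (1.85 to 1.86, mouse Tg 91) of a library's counts fell on them, and Rny3 alone made up 49.0% to 66.2% of their summed CPM. Rny3 is the Y3 RNA (chr6:47781624-47781725, plus strand, outside any annotated host), and it ends in the run of T that terminates RNA polymerase III, in capitals here.

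Rny3: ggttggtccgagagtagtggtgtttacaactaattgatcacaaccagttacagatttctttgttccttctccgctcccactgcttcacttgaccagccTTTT

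Per length, Rny3 had a mean level of 74443 CPM per kb over the 12 mice. Next in order were Gm24119, in an intron of Slc25a3, at 6844 CPM per kb, Snora35 at 5580.0, Gm23442, in an intron of Prrc2a, at 3157, Gm23639, in an intron of Epb41l4aos, at 2004, the vault RNA gene Vaultrc5 at 1464 and Gm25777, in an intron of Ranbp1, at 1033. No SNORD115 copy exceeded 780.0 CPM per kb. A total of 64 of the 90 genes had a mean of at least 10 CPM, 7 had at least 100 CPM, and 3 had under 2 CPM.

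**Figure D1:**
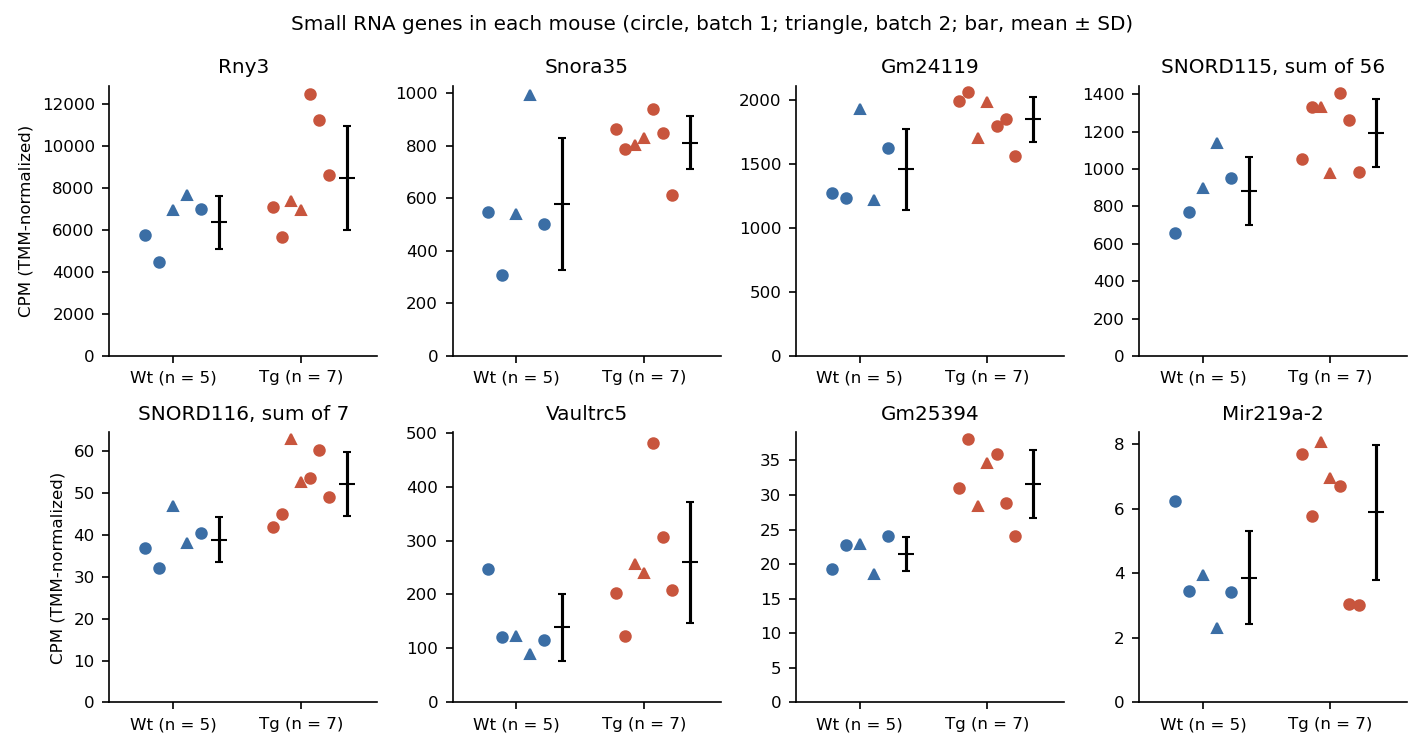
TMM-normalized CPM (y axis, from 0) of 6 genes and of the SNORD115 and SNORD116 sums in each of the 5 Wt and 7 Tg mice, with circles for batch 1, triangles for batch 2 and bars for mean ± SD. Tg means are higher in each panel, and in every panel at least 1 Tg mouse lies within the range of the Wt mice.

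All 90 genes had a higher fitted level in Tg than in Wt mice, with log2 fold changes from 0.24 to 1.06 and a median of 0.48, where the median over all 15928 rows was -0.003. None of the 90 passed an adjusted p under 0.1 in edgeR, where 0.00628% of all rows did (smallest adjusted p among the 90, 0.60), and DESeq2 called 5 of them, where it called 0.352% of rows. At an unadjusted p under 0.05 there were 81 of 90 in edgeR, against 7.19% of all rows in either direction and 4.46% higher in Tg mice, and 86 of 90 in DESeq2, against 7.7%. The count of 81 was 51 without Wt 41 and 54 without Wt 12. In 13 of 90 every Tg mouse was above every Wt mouse, against 0.22% of all rows, and this count was 21 without Wt 80, 23 without Wt 95 and 24 without Tg 69. Since the names came from a table ranked by this contrast, nothing is read from these counts. A difference in the number of cells that make an RNA and a difference in RNA per cell cannot be told apart in these tissue samples. The 5 genes DESeq2 called were Gm25394 (adjusted p = 0.0345) and the SNORD115 copies Gm25089 (0.0594), Gm25085 (0.0749), Gm23286 (0.0782) and Gm26392 (0.0782).

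For the SNORD115 copies, the Tg minus Wt log2 fold changes ran from 0.34 to 0.94 with a median of 0.48. Summed over the 56 copies, the level was 659, 767, 899, 1136 and 950.1 CPM in mice Wt 12, 41, 79, 80 and 95, and 980.1 to 1406 with a median of 1263 in the Tg mice. The groups overlap, since Wt 80 was above 3 of the 7 Tg mice. Gm25089, which has the second sequence with C79G added, had 12.9, 15.4, 17.4, 12.3 and 15.7 CPM in the same Wt mice and 18.1 to 26.5 (median 22.1) in Tg mice. Its groups do not overlap, and its log2 fold change was 0.58 (SE 0.13). For Gm25085 the Wt values were 13.5, 17.5, 19.1, 14.6 and 18.2 CPM and the Tg values 19.1 to 29.2 (median 23.7), with the lowest Tg mouse just above the highest Wt mouse (log2 fold change 0.55, SE 0.13). Gm23286 carries the second sequence and had 15.1 to 18.9 CPM in Wt and 19.6 to 31.1 in Tg mice (log2 fold change 0.55, SE 0.13). Gm26392 had 10.8 to 13.8 CPM in Wt and 14.9 to 19.2 in Tg mice (log2 fold change 0.47, SE 0.11), again with no overlap. Of the 13 genes without overlap, 11 were SNORD115 copies, 1 was the SNORD116 copy Gm22631 and 1 was Snora24.

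The largest fitted difference among SNORD115 copies was in the copy with the lowest level. Gm25121 had 0.292, 0.722, 0.504, 0.650 and 1.24 CPM in Wt mice and 1.03 to 1.62 (median 1.27) in Tg mice (log2 fold change 0.94, SE 0.31), and its lowest raw count of 5 reads was the lowest of any of the 90 genes. Gm22510 had 2.86, 4.55, 5.77, 4.08 and 6.36 CPM in Wt and 5.43 to 11.2 (median 7.42) in Tg mice (log2 fold change 0.69, SE 0.23). For Gm22111 these values were 4.78, 5.94, 8.02, 6.15 and 9.74 CPM against 8.60 to 15.4 with a median of 10.6 (log2 fold change 0.64, SE 0.20). In both, 1 or 2 Tg mice lay within the Wt range. The copy with the highest level, Gm23618, had 37.3, 37.1, 50.5, 88.7 and 52.7 CPM in Wt and 49.7 to 86.1 (median 71.3) in Tg mice, and here mouse Wt 80 was above all Tg mice (log2 fold change 0.41, SE 0.21). Copies with all 18 Htr2c-complementary bases had a median log2 fold change of 0.48 and those with fewer 0.45. The difference between these medians was not tested, since copies share their host transcript and most of their sequence and are not independent.

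SNORD116 gave 7 copies with log2 fold changes from 0.33 to 0.64 and a median of 0.55. Their summed level was 36.9, 32.2, 46.9, 38.1 and 40.4 CPM in mice Wt 12, 41, 79, 80 and 95 and 41.8 to 62.9 (median 52.7) in Tg mice, so 5 of 7 Tg mice were above the highest Wt mouse. Gm24760, whose sequence is identical to that of Snord116l8, had the highest level of the 7 at 16.2 CPM. Gm22631 had 3.72 to 4.55 CPM in Wt and 4.98 to 7.58 in Tg mice, with no overlap (log2 fold change 0.57, SE 0.15).

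**Figure D2:**
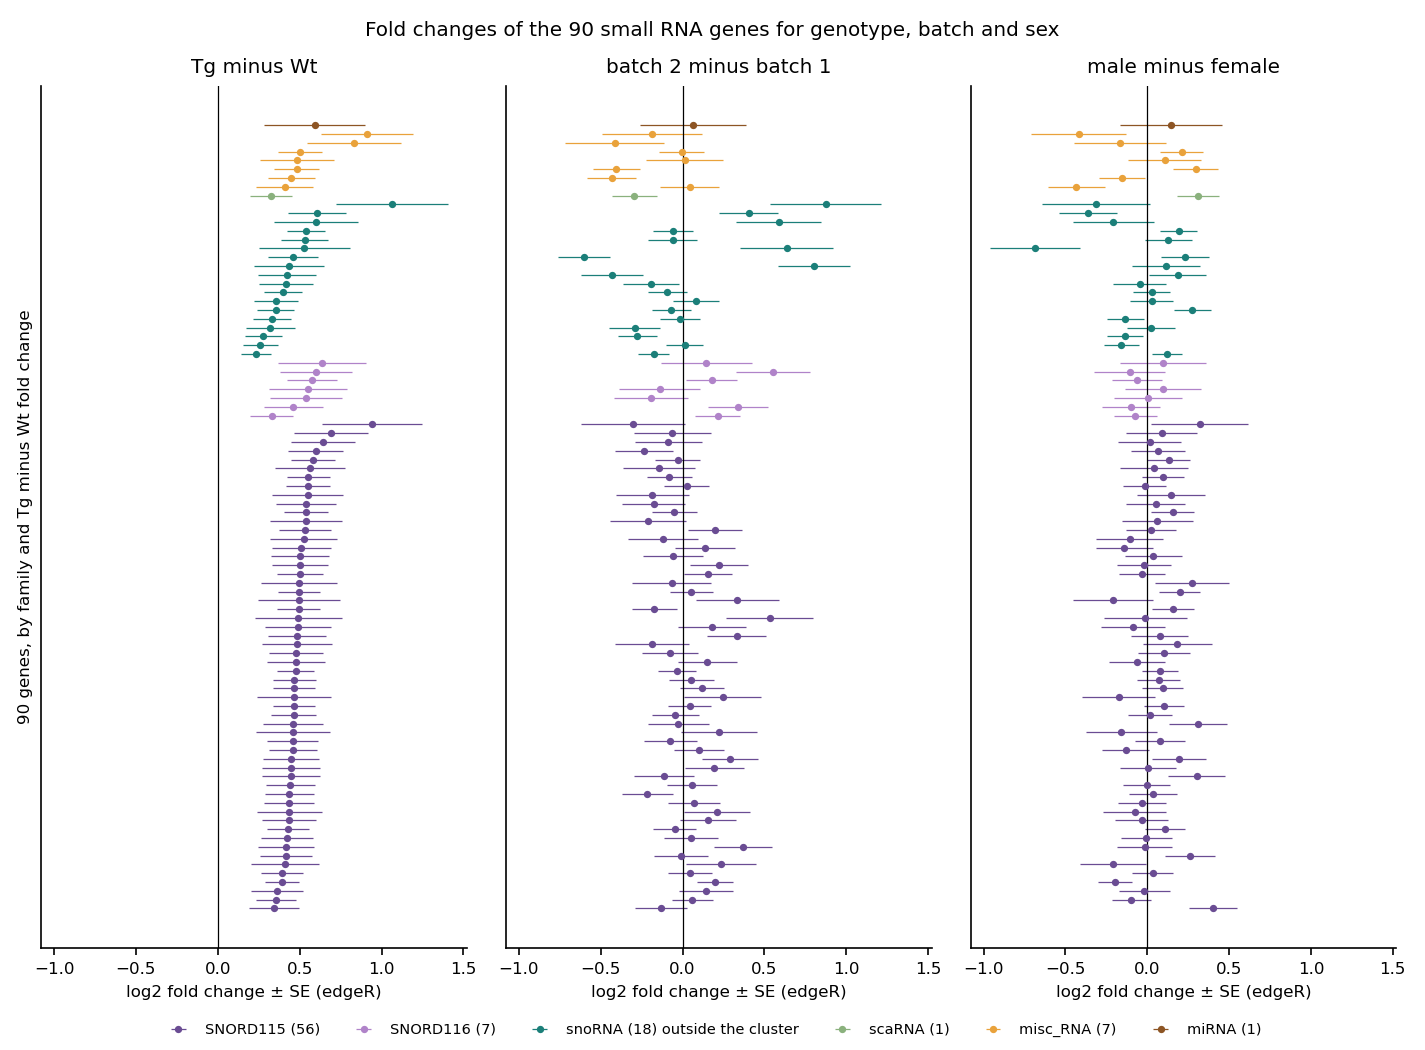
Fitted log2 fold change ± SE (x axis, edgeR) of each of the 90 genes (1 line each, coloured by family) for Tg minus Wt, batch 2 minus batch 1 and male minus female. For genotype all points lie right of 0, between 0.24 and 1.06, while for batch 45 are above and 45 below 0, and for sex 52 are above and 38 below.

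Outside the cluster there were 18 snoRNA genes on 13 chromosomes. Their median log2 fold change for Tg against Wt was 0.42. An unadjusted p under 0.05 in edgeR was found for 16 of them, against 7.19% of all rows in either direction and 4.46% higher in Tg mice. They too were named through the table ranked by this contrast, so nothing is read from this count. Gm25394, the H/ACA gene in Iars, had 19.3, 22.7, 23, 18.6 and 24.1 CPM in Wt mice and 24.0 to 38.1 (median 31.0) in Tg mice. Only the lowest Tg mouse, Tg 93, fell within the Wt range (log2 fold change 0.54, SE 0.12, the smallest p of the 90 genes at an unadjusted 4.88e-04). Its near-identical relative Gm25989 gave 10.4 to 19.6 CPM in Wt and 18.6 to 26.5 in Tg mice, 6 of 7 of them above all Wt mice (log2 fold change 0.53, SE 0.14). Snora24, in an exon of the host gene Snhg8, had 16.1 to 21.1 CPM in Wt and 21.4 to 30.2 in Tg mice, without overlap (log2 fold change 0.40, SE 0.11).

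Snora35, a brain-enriched H/ACA snoRNA, had 549, 308, 540.0, 993 and 504 CPM in mice Wt 12, 41, 79, 80 and 95 and 610.4 to 939 (median 828) in Tg mice. Wt 80 was above every Tg mouse and the other 4 Wt mice were below every Tg mouse (log2 fold change 0.60, SE 0.18). Gm24119, the second in level, had 1274, 1231, 1929, 1217 and 1624 CPM in Wt mice and 1564 to 2061 (median 1848) in Tg mice (log2 fold change 0.35, SE 0.13). In this gene Wt 79 and Wt 95 lay within the Tg range, and Wt 80 was the lowest mouse. Gm26457, a box C/D snoRNA in an intron of Eef1b2, had the largest fold change of all, with 1.23, 1.11, 2.66, 5.32 and 2.48 CPM in Wt and 2.23 to 7.01 (median 5.31) in Tg mice (log2 fold change 1.06, SE 0.34). Both groups of this gene spread over more than 2-fold and overlapped. Differences were small in 3 H/ACA genes with high levels. Gm25777 had 105 to 128 CPM in Wt and 118 to 168 in Tg mice (log2 fold change 0.24, SE 0.09), Gm23442 had 329 to 419 and 384 to 564 CPM (0.26, SE 0.11), and Gm23639 had 183 to 270 and 257 to 336 CPM (0.33, SE 0.12).

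Hosts could be compared in only a few cases, because of all the genes that hold a member only Prrc2a and Prrc2b have a named row. Both were named through the same table of mostly small p-values for Tg against Wt, so their values are also a description only. Prrc2b, an RNA-binding protein gene, had 747, 1118, 626, 572 and 707 CPM in mice Wt 12, 41, 79, 80 and 95 and 583 to 774 CPM in Tg mice. Its log2 fold change of -0.24 (SE 0.11) was -0.11 (SE 0.10) without Wt 41, the highest mouse. The identical snoRNA genes Gm22192 and Gm25632 in its introns had positive values (0.46, SE 0.15, and 0.42, SE 0.18). Gm22192 had 9.34, 13.4, 8.52, 5.32 and 13.9 CPM in Wt and 10.2 to 18.1 (median 14.0) in Tg mice. Prrc2a had 359 CPM in Wt 41, 154 to 233 CPM in the other 4 Wt mice and 163 to 236 CPM in Tg mice, and its log2 fold change of -0.31 (SE 0.11) was -0.18 (SE 0.10) without Wt 41. Its intronic snoRNA Gm23442 had a value of 0.26 (SE 0.11). None of these 5 passed the adjusted threshold. Of the fixed lists of snoRNP, Cajal body, 7SK, signal recognition particle, Ro and La, vault, RNase P, microRNA processing, RNA polymerase III and exosome genes, none could be given a row, so their levels are not analysed here.

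The 7 misc_RNA genes were Rny3, Vaultrc5 and 5 predicted genes with relatives in known families made by RNA polymerase III. Gm26168 and Gm26124 are 90.2% and 84.8% identical to Rny1, Gm24146 is 84.0% identical to Rn7sk, and Gm23153 and Gm24812 are 78.3% and 73.3% identical to 7SL genes. Rny3 had 5736, 4473, 6934, 7657 and 6983 CPM in mice Wt 12, 41, 79, 80 and 95 and 5649 to 12439 (median 7367) in Tg mice. Only Tg 91, Tg 92 and Tg 93 were above the highest Wt mouse, and the log2 fold change of 0.41 (SE 0.17) rested on groups that largely overlap. Vaultrc5 had 247, 121, 122, 90.6 and 115 CPM in Wt and 124 to 480.1 (median 239) in Tg mice, with Wt 12 set off from the other Wt mice (log2 fold change 0.91, SE 0.28).

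The 7SL-related Gm23153 had 15.5, 18.6, 17, 14.1 and 16.7 CPM in Wt and 16.7 to 27.2 (median 25) in Tg mice, where 5 of 7 Tg mice were above all Wt mice (log2 fold change 0.50, SE 0.13). Gm24812, the other 7SL relative, in an intron of Il1rapl1, was near 4 CPM (log2 fold change 0.48, SE 0.22). Gm24146, the 7SK relative, had 43.6, 50.2, 36, 20.9 and 44.6 CPM in Wt and 46.3 to 66.8 (median 54.5) in Tg mice (log2 fold change 0.48, SE 0.14). Of the Y RNA relatives, Gm26168 had 35.0 to 51.4 CPM in Wt and 46.9 to 98.6 in Tg mice (log2 fold change 0.45, SE 0.14), and Gm26124 0.591 to 1.18 and 0.987 to 2.71 CPM (0.83, SE 0.29). Reads from diverged copies of these abundant RNAs elsewhere in the genome can be hard to assign, so the levels of the 5 predicted genes are uncertain.

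Gm22009, the scaRNA gene in an intron of Kpna4, had 50.1, 72.1, 53.2, 43.7 and 60.2 CPM in Wt and 50.9 to 104 (median 67.3) in Tg mice, and its groups overlap in all but 3 Tg mice (log2 fold change 0.32, SE 0.13). The microRNA gene Mir219a-2 (chr2:29845631-29845727, minus strand) encodes miR-219, an oligodendrocyte microRNA that promotes their differentiation. Its RefSeq mature form on GRCm38.p6 is shown with the seed, bases 2 to 8, in capitals.

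mmu-miR-219a-5p, chr2:29845689-29845709, minus strand: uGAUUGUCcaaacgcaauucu

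Counts on Mir219a-2 gave 6.24, 3.44, 3.94, 2.31 and 3.43 CPM in mice Wt 12, 41, 79, 80 and 95. The 7 Tg mice had 3.01 to 8.08 CPM with a median of 6.71. Tg 67, Tg 92 and Tg 93 lay below the highest Wt mouse, Wt 12 (log2 fold change 0.59, SE 0.31). Libraries of total RNA do not select mature microRNAs, and reads of the precursor and of the mature form were not separated.

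Cell type markers are given beside these genes, and each of their sums overlapped between Wt and Tg mice. A marker could be named only if it was in the study's table, which holds mostly small p-values for Tg against Wt. The marker values are therefore also a description only. The summed level of 7 of 8 oligodendrocyte markers, Mbp and Mog among them, was 743 to 2375 CPM in Wt and 895 to 3727 CPM in Tg mice, and all 7 had higher fitted levels in Tg mice. The 10 choroid plexus markers, of which all could be named, summed to 104 to 582 CPM in Wt mice and to 98.6 to 2314 CPM in Tg mice, with Kcne2 and Slc4a5 at 0 reads in some mice and with Tg 67 and Tg 93 (99.4 and 98.6 CPM) just below the lowest Wt mouse. Across the 12 mice, which share depth, dissection and batch, the oligodendrocyte sum had a Pearson r of 0.83 with Mir219a-2, 0.81 with Vaultrc5 and 0.73 with Snora24, and a median of 0.41 over the 90 genes. Rny3 made up 49.0% to 66.2% of the summed CPM of all 90 genes, so correlations with that sum weigh this 1 gene most. The log2 sum had an r of -0.74 with the log2 neuronal sum, 0.59 with choroid plexus, 0.52 with oligodendrocyte, -0.33 with astrocyte and 0.25 with microglial markers. The neuronal sum (6 of 9 markers) was 4133 to 6393 CPM in Wt and 3563 to 4856 in Tg mice. The astrocyte sum (3 of 5) was 2617 to 3432 and 2325 to 2984 CPM, the microglial sum (2 of 5) 32.2 to 38.1 and 35.8 to 48.5 CPM, and 0 of 3 endothelial markers could be named. Fitted levels were higher in Tg mice for 10 of 10 choroid plexus, 2 of 6 neuronal, 1 of 3 astrocyte and 2 of 2 microglial markers. The part of these differences in the levels of the small RNAs was not tested. In Tg 67 and Tg 93, with the lowest choroid plexus sums of all 12 mice, the SNORD115 sums were 1333 and 981 CPM. The Wt mice had 659 to 1136 CPM, so Tg 67 lay above their range and Tg 93 within it. A relation of the SNORD115 sums to choroid plexus was not tested.

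As a side by side comparison, 76 small nuclear RNA genes named by the same matching all had higher fitted levels in Tg mice as well (median log2 fold change 0.61), while of 1022 named protein coding genes 519 were higher and 503 lower (median 0.22). All 3 sets were drawn from the same ranked table.

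**Figure D3:**
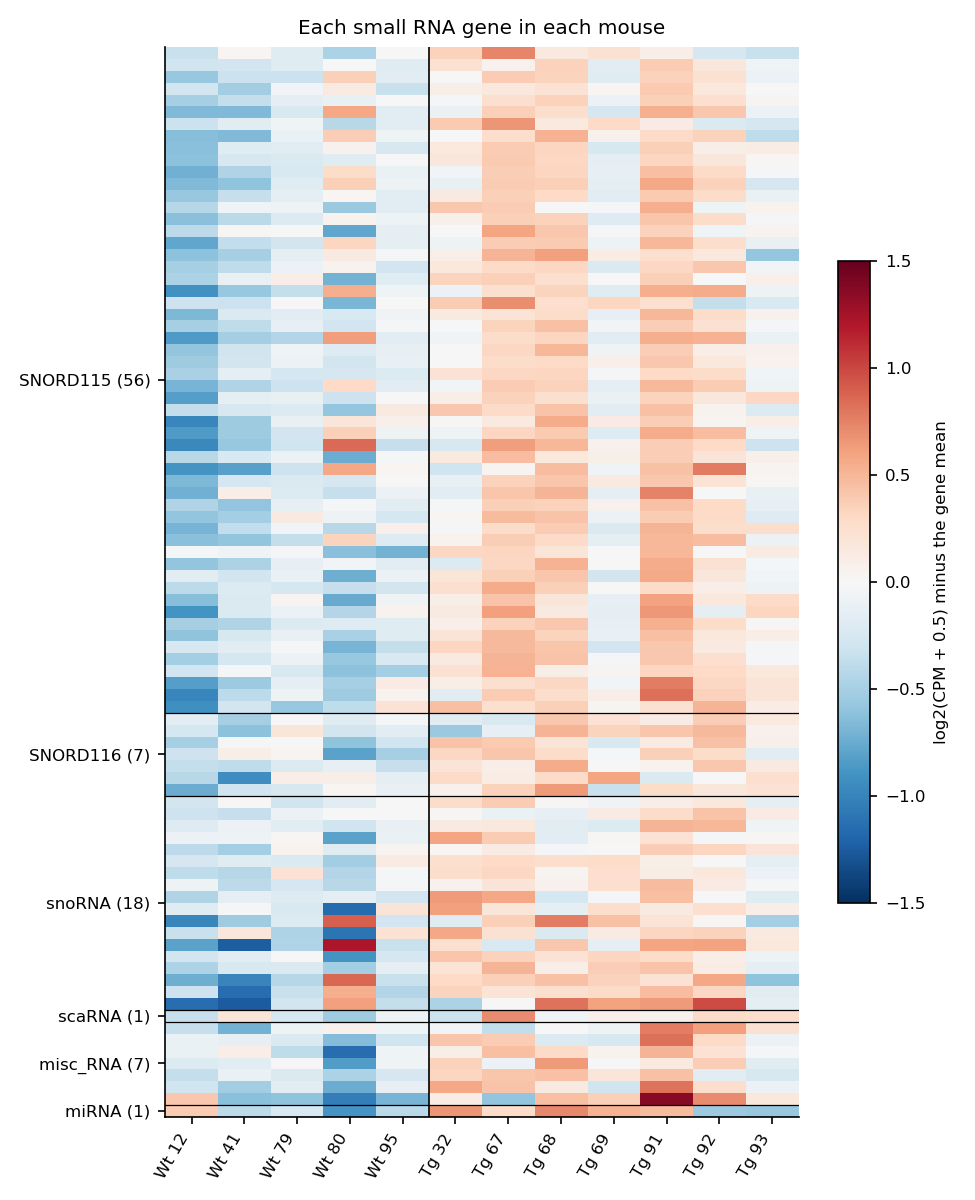
log2(CPM + 0.5) of each of the 90 genes (rows, ordered by family) in each of the 12 mice (columns, 5 Wt then 7 Tg), minus the gene's mean over mice (values from -1.24 to 1.36). Wt 12 and Wt 41 are low and Tg 67, Tg 68 and Tg 91 high in most rows, and Wt 80 is high in some rows and low in others.

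The genes varied together across mice. Over all pairs of the 90 genes the median Pearson r of log2(CPM + 0.5) across the 12 mice was 0.62, and it was 0.76 among SNORD115 copies, against 0.59 among the 76 named small nuclear RNA genes and 0.03 over all named rows, which share the same libraries. The group difference by which the genes were chosen enters these values. Within the 5 Wt mice the median r over the 90 genes was 0.33 and within the 7 Tg mice 0.44. Among SNORD115 copies it was 0.52 in Wt and 0.69 in Tg mice. The first principal component of the 90 genes held 60.5% of the variance, with Wt 12 (-0.54) and Wt 41 (-0.35) at one end and Tg 91 (0.43) and Tg 67 (0.35) at the other. Tg 69 (-0.02) and Tg 93 (-0.02) lay in the middle of it.

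The second component held 17.7% and set 1 mouse apart, Wt 80 (0.83, next Wt 41 at -0.31). In this mouse the SNORD115 copies split by level. Of 39 copies with a mean of at least 10 CPM, 27 were above the median of the other 4 Wt mice in Wt 80, by a median of 0.29 on the log2 scale, whereas of 17 copies under 10 CPM only 2 were above, with a median of -0.29. Across the 56 copies the deviation of Wt 80 had a Pearson r of 0.69 with the mean level in the other 11 mice, given as a description since the copies share sequence and library. Of the 10 copies with the second sequence all were above, by 0.13 to 1.02, of the 16 copies with the first sequence 10 were above, with a range from -0.59 to 1.10, and the copies in the next 6 shared sequences were all below. The 16 copies with the first sequence thus did not all move alike in this mouse, while the 10 with the second sequence moved in the same direction. Of the 11 copies with interrupted Htr2c complementarity 6 were above and 5 below, with a range from -0.56 (Gm26467) to 1.31 (Gm24495).

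**Figure D4:**
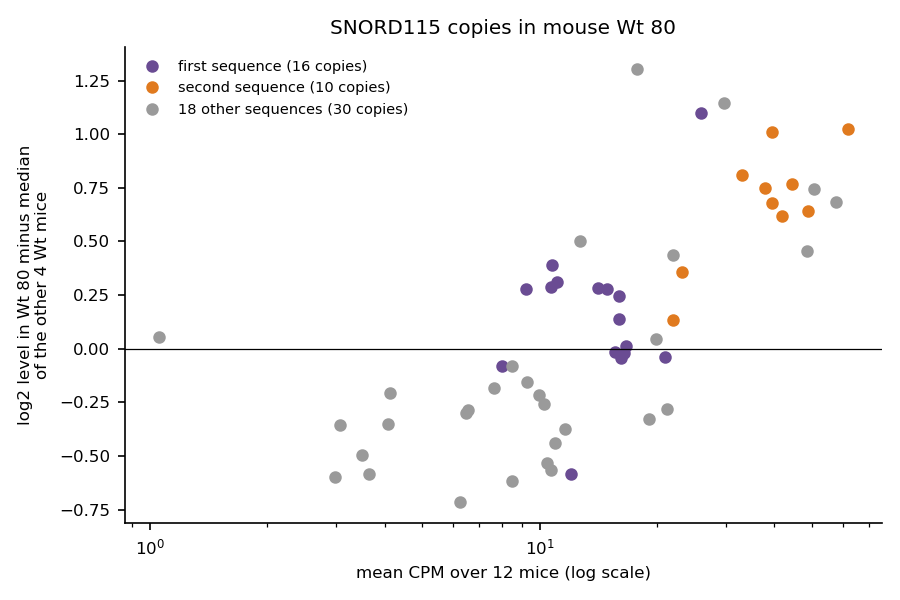
For each of the 56 SNORD115 copies, the log2 level in mouse Wt 80 minus the median of the other 4 Wt mice (y axis) against the mean CPM over 12 mice (x axis, log scale), coloured by sequence. The 10 copies with the second sequence all lie above 0 and most copies under 10 CPM lie below it.

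The same mouse stood out in snoRNA genes elsewhere. The 3 genes outside the cluster with both C/D patterns in the search windows were 1.30 to 1.84 above the median of the other Wt mice on the log2 scale. The 4 genes with neither pattern, whose class the search leaves undecided, went both ways. Gm22192 was at -1.01, Gm25632 at -1.05, Gm24119 at -0.24 and Snord13 at 1.44. Gm23130, in an exon of Rps12 by annotation, had 57.2 CPM in Wt 80 against 13.8, 10.05, 17.7 and 19.2 in mice Wt 12, 41, 79 and 95, and 20.7 to 37.5 in Tg mice. AF357428, in the imprinted Dlk1-Dio3 region, had 42.0 CPM in Wt 80 against 11.1, 15.3, 19.3 and 18.2. Snord13, which guides acetylation of ribosomal RNA, had 77.1 CPM against 20.99 to 33.4. The 11 genes with the H/ACA tail had a median deviation of -0.16, although Snora35 was 0.93 above, and 6 of the 7 misc_RNA genes were below. Gm24146 had its lowest level in this mouse. In Wt 80 the oligodendrocyte and choroid plexus sums of 899 and 205 CPM lay within the range of the other Wt mice, while its astrocyte sum of 3432 CPM was the highest of all 12 mice.

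Levels also varied along the cluster. The 56 copies span 260672 bases, and their mean levels ran from 1.05 to 61.6 CPM. The 10 copies of the second sequence lay 22454 to 123315 bases from the first copy in the direction of transcription and had means of 21.95 to 61.6 CPM (median 39.4), while the 16 copies of the first sequence had 8.02 to 26.0 CPM (median 15.2), a 3.24-fold range among genes of identical sequence. The 11 copies whose sequence no other of the 56 has had a median of 19.1 CPM, and the 45 that share theirs within the 56 had 12.01 CPM. The 135 annotated copies have 55 distinct sequences. Copies outside the 56 were not compared, so some of the 11 may be identical to a copy that has no name here. Reads from within identical copies cannot be assigned to 1 of them, and the authors kept only unique reads, so the division of counts among copies is uncertain. Over the 56 copies, distance and mean log2 level had a Pearson r of -0.39, and the copy farthest along, Gm25156, had 57.5 CPM.

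**Figure D5:**
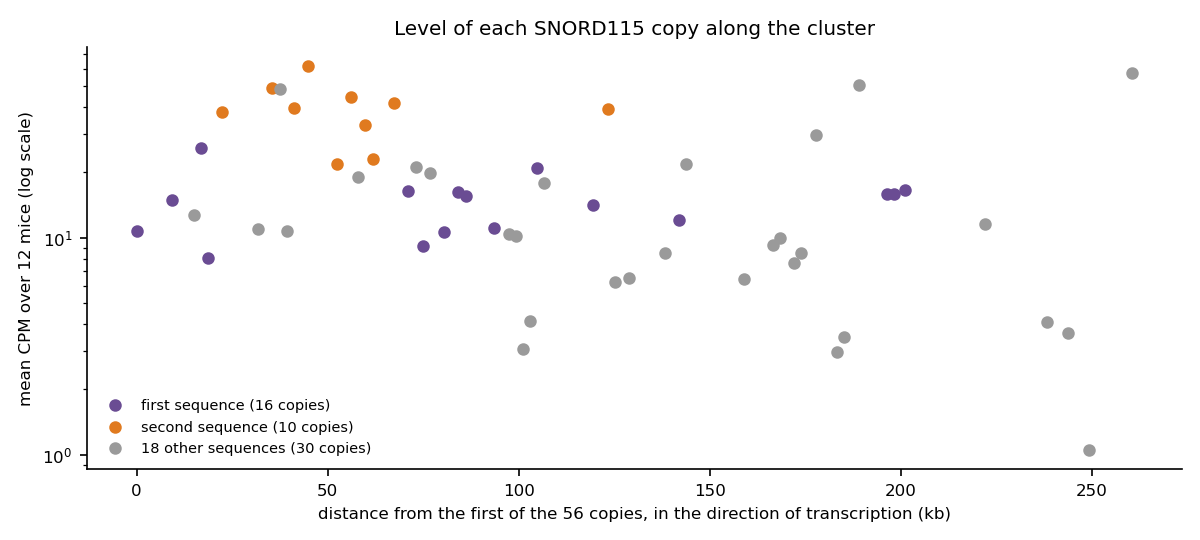
Mean CPM over 12 mice (y axis, log scale) of each of the 56 SNORD115 copies against the distance in kb from the first copy in the direction of transcription (x axis), coloured by sequence. The 10 copies of the second sequence lie at 21.95 to 61.6 CPM, above most copies of the first sequence at 8.02 to 26.0.

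Batch did not enter the choice of the genes. None of the 90 passed an adjusted p under 0.1 for batch 2 against batch 1, and edgeR called 0 of 15928 rows (0.0%) while DESeq2 called 24 rows (0.163%) and 0 of the 90 genes. At an unadjusted p under 0.05 there were 12 of 90 in edgeR, against 7.64% of all rows, and 14 of 90 in DESeq2, against 7.94%. The count of 12 was 4 without Wt 41, 5 without Wt 80 and 5 without Tg 68. The median log2 fold change was 0.004, with 45 genes higher and 45 lower in batch 2, a split that became 60 and 30 without scaling factors. Of the 12, 6 were higher in batch 2 (3.35% of all rows were) and 6 lower. These 12 were unevenly spread, with 8 among the 18 snoRNA genes outside the cluster (5 higher and 3 lower in batch 2), 2 of 7 misc_RNA genes (both lower), the scaRNA gene, 1 SNORD116 copy and 0 of 56 SNORD115 copies. A test of the difference between these families was not run. Gm22192 was lower in batch 2 (log2 fold change -0.60, SE 0.16, unadjusted p = 0.00235, edgeR) and its identical neighbour Gm25632 also (-0.43, SE 0.19). AF357428 was higher (0.80, SE 0.22, unadjusted p = 0.00263, edgeR), and without Wt 80 this value was 0.44. Gm26457 was higher (0.87, SE 0.34), with 0.58 without Wt 80, and Gm23130 was higher (0.64, SE 0.28), with 0.11 without Wt 80. Gm26168 (-0.43, SE 0.15) and Gm24146 (-0.40, SE 0.15) were lower, and Gm26124, with an unadjusted p of 0.192 in edgeR, had a value of -0.41 (SE 0.30).

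Sex likewise did not enter the choice. No gene of the 90 passed for male against female in edgeR, which called 0 of 15928 rows (0.0%), or in DESeq2, which called 175 rows (1.1%). An unadjusted p under 0.05 was found for 6 of the 90 genes in edgeR, against 11.3% of all rows, and for 7 in DESeq2, against 11.8%. The count of 6 was 2 without Wt 41 or Tg 69, 3 without Wt 80 and 12 without Wt 79. The log2 fold changes had a median of 0.03 with 52 higher and 38 lower in males. Gm24862, a SNORD115 copy with G70A, was higher in males (0.40, SE 0.15, unadjusted p = 0.0179 in edgeR, and 0.0442 by a two-sided exact permutation test of all 792 assignments of sex). It was the only one of the 90 under 0.05 in the permutation test, where 8.48% of all rows were, and its adjusted p over all rows was 0.57. Unlike the edgeR fit, the permutation test had no terms for genotype or batch, and it counted Wt 41 as male. The other 5 were Gm24507 (0.28, SE 0.11), Gm22009 (0.31, SE 0.13) and Gm24146 (0.30, SE 0.14), higher in males (4 of the 90 with Gm24862, where 5.91% of all rows were), and Rny3 (-0.44, SE 0.17) and Gm23130 (-0.68, SE 0.28, -0.31 without Wt 80), lower in males. Without mouse Wt 41, whose Xist level goes against its label, edgeR called 1 row and 0 of the 90 genes, and Gm24862 (0.43) and Gm24507 (0.34) were under an unadjusted 0.05. Without Wt 95 the number of called rows was 540, and Rny3 was among them (log2 fold change -0.63, adjusted p = 0.0883).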

How the data were processed

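The authors removed ribosomal RNA, aligned Ion Torrent reads to mm10 with STAR and Bowtie2, counted unique, unambiguous reads per gene, dropped low-count genes with edgeR, and deposited the raw counts of the 15928 that were left. They also deposited library sizes and normalization factors, a ratio between libraries computed with edgeR. The annotation version, and whether counting used strand, are not given in the sources used here. The deposited tables hold no gene names. A row was named where its mean size-factor-normalized count matched a single mean of the study's DESeq2 table within a relative difference of 1e-09. This paired 1349 of the 1684 genes of that table and left 335 unpaired. With the means shifted, 10 trials gave 0 pairs. A simulation paired 1684 of 1684 genes correctly, but all were drawn from rows of the count table, so it does not cover genes without a row.

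The 90 genes and all gene lists were chosen with earlier results of these data known. Genotype, batch and sex were terms of 1 edgeR 4.0.16 quasi-likelihood fit over all rows (R 4.3.3, TMM, filterByExpr, which removed 0 rows), called at a Benjamini-Hochberg adjusted p under 0.1, with DESeq2 1.42.0 as an alternative. CPM used TMM factors, and 0.5 was added before log2 in descriptions. In simulated counts of 15928 genes for Tg against Wt, 100 genes were changed 2-fold and 100 were changed 4-fold. Of these, edgeR recovered 93 and 100, with 16 other calls, and DESeq2 recovered 90 and 100, with 36 other calls. Recovery of changes under 2-fold was not tested, and the median log2 fold change of the 90 genes was 0.48. Positions, types and sequences were from GENCODE M21 (GRCm38), and Gm25617 and Gm26457 each have more than 1 annotated gene, of which the longer was used. A family was assigned at 80% identity. The named genes were every member of types with 5 or fewer members, in larger types the 6 with the highest mean CPM, the 4 with the largest fold change in each direction and the 3 with the smallest p for batch and for sex, and those DESeq2 called; genes without overlap would have been named by rule had they been 12 or fewer. Others are named for their sequence, host or lack of overlap and were chosen after their values were seen. Depth was 15768135 to 20996174 counts per mouse, and counts of a gene in a mouse went down to 5 (Gm25121) and 10 (Gm26124), where counting error is large. Alternatives covered the model, scaling, filters, covariates, threshold, batch 1 alone and each mouse left out. For oligodendrocytes, 1 marker of the list is not reported here and was left out of the sum.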

Additional observations from a re-analysis of the deposited data

Results flagged for a closer look

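A screen of 70 groups of values (the 29 genes named by rule and 6 sums, each in Wt and in Tg mice) looked for a single mouse far from the others of its group by Dixon's ratio, the gap to the nearest mouse divided by the whole range. Chance gives such a result in about 1 of 20 groups, and 5 were found. In Wt mice, Wt 80 was set off for Gm23130 (57.2 CPM, median of the other 4 mice 15.8, ratio 0.805 against a critical value of 0.71) and for AF357428 (42.0 CPM, median of the others 16.8, ratio 0.734). Wt 12 was set off for Vaultrc5 (247 CPM, median of the others 118, ratio 0.796), and its oligodendrocyte sum of 2375 CPM was also the highest of the Wt mice. In Tg mice, Tg 91 was set off for the SNORD115 copy Gm22111 (15.4 CPM, median of the others 10.4, ratio 0.624 against 0.568) and for the sum of the misc_RNA genes without Rny3 (680 CPM, median of the others 360.0, ratio 0.582), in which Vaultrc5 has the largest share. The causes were not tested. An interaction of genotype and sex was fitted over all rows in edgeR, and 0 of the 90 genes passed (unadjusted p under 0.05 in 567 of 15928 rows and in 0 of the 90 genes).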

How the results depend on the processing

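All 90 genes kept a higher fitted level in Tg mice under every alternative that tested them, with 64 tested under a filter of at least 10 CPM. Their median log2 fold change of 0.48 was 0.68 in batch 1 alone, whose cause was not tested, and 0.40 to 0.55 in fits lacking 1 mouse. For genes passing in Tg against Wt (1 in edgeR), DESeq2 called 56, batch 1 alone 0, and fits without 1 mouse 1 to 2, with 2 without Tg 93. For batch DESeq2 called 24 where edgeR called 0, and leaving out a mouse gave 0 to 0. For sex DESeq2 called 175 where edgeR called 0, and leaving out a mouse gave 0 to 540, with 1 without Wt 41 and 540 without Wt 95. The count of genes with no overlap, 13, was 11 with RLE factors, 9 without scaling and 13 to 24 without 1 mouse, with 21 without Wt 80, 23 without Wt 95 and 24 without Tg 69. The median pairwise r of 0.62 stayed between 0.58 and 0.69, and the exact permutation test over sex called 0 to 0 rows (both left-out series, and those of Prrc2a and Prrc2b, were chosen after seeing the data). The share of counts on the 90 genes had a median of 1.25% over 12 mice and 1.18% in batch 1, and a wider match tolerance gave the same 90 genes. Of the Tg against Wt values of the 29 genes named by rule under alternatives, 597 kept their direction and side of the threshold and 5 passed it, all in DESeq2. No paired analysis was possible because Wt and Tg mice share no replicate numbers. The 16 identical copies of the first SNORD115 sequence had 91 to 670 reads each per mouse, and how unique reads were divided among them limits values of single copies.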
